A study of Mus musculus with 12 samples.

Results

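The hepatocyte identity transcription factors are DNA-binding proteins that set up and maintain the gene programme of the main cell type of the liver. The 9 factors described here, out of the 53465 genes in the table and the 28449 with at least 1 count, were taken by name: Hnf4a, Foxa1, Foxa2, Foxa3, Cebpa, Cebpb, Nr5a2, Prox1 and Onecut1. All 9 were detected in each library. Their mRNA was measured by bulk RNA-seq in whole livers of C57BL/6N mice. The young animals were 3, the middle-aged 12 and the aged 18 months old. The 4 livers at an age had separate replicate numbers in the labels and were taken to be from different animals. The labels gave no genotype, sex or treatment for any group, so age was the only labelled difference. Numbers from 1 to 4 name the livers within an age, and those numbers belong to different animals at each age.

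Hepatocyte identity rests on a network in which these factors bind enhancers of liver genes and of each other. HNF4A is a nuclear receptor that drives apolipoprotein, clotting and metabolic genes. The FOXA proteins open compact chromatin for other factors, C/EBPα and C/EBPβ are leucine zipper proteins with roles in metabolism and the acute-phase response, and NR5A2 is a nuclear receptor of bile acid and cholesterol metabolism. PROX1 is a homeobox protein that restrains several nuclear receptors in liver and also marks lymphatic endothelium. ONECUT1, also called HNF6, is a cut-homeobox protein that acts in liver and bile duct development and in adult glucose metabolism.

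Libraries held between 8124312 and 10527159 counts in genes, so the floor of 3 counts lay between 0.285 and 0.369 counts scaled to a common total (CPM). At least 1 count was found for 22284 genes in young liver 3 and 19982 in middle-aged liver 1, against 16361 to 17563 in the other 10 libraries. Mitochondrial genes took 19.2% of gene counts in young liver 2 and from 5.48 to 10.68% elsewhere. The relative abundances of 31 synthetic spike-in RNAs put livers 1 and 2 of every age in a set (set A) and livers 3 and 4 in another (set B), with correlations of at least 0.997 within sets and at most 0.925 between them. Markers of hepatocytes (Alb, Ttr, Apoa1, Ahsg, Fgb, Trf and Asgr1) summed to between 803038 and 1034271 normalised counts in all livers, and 0 of 7 passed the test in any pair of ages.

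Expressed per length of annotated exon, as TPM (transcript abundance scaled to a common total in each library), the factors spanned a range of 57.2-fold. Cebpa was highest at 453 ± 69.5 TPM (SD, n = 12), followed by Hnf4a at 286 ± 38.9, Cebpb at 115 ± 38.3, Foxa3 at 51.3 ± 8.47, Foxa2 at 31.0 ± 9.08, Nr5a2 at 23.2 ± 5.80, Prox1 at 19.8 ± 10.3, Foxa1 at 12.9 ± 4.14 and Onecut1 at 7.93 ± 7.40. The order of the highest 3, and their place above Foxa3, held in each of the 12 livers. Foxa3 exceeded Foxa2 in 11 livers and Foxa1 exceeded Onecut1 in 10. The place of Onecut1, and with it the range of 57.2-fold, depends on how reads in exons shared with another gene were counted. That is not known. Neighbours lower down were not clearly separated, since Foxa2 was above Nr5a2 in 9 livers, Nr5a2 above Prox1 in 8 and Prox1 above Foxa1 in 8.

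**Figure D1:**
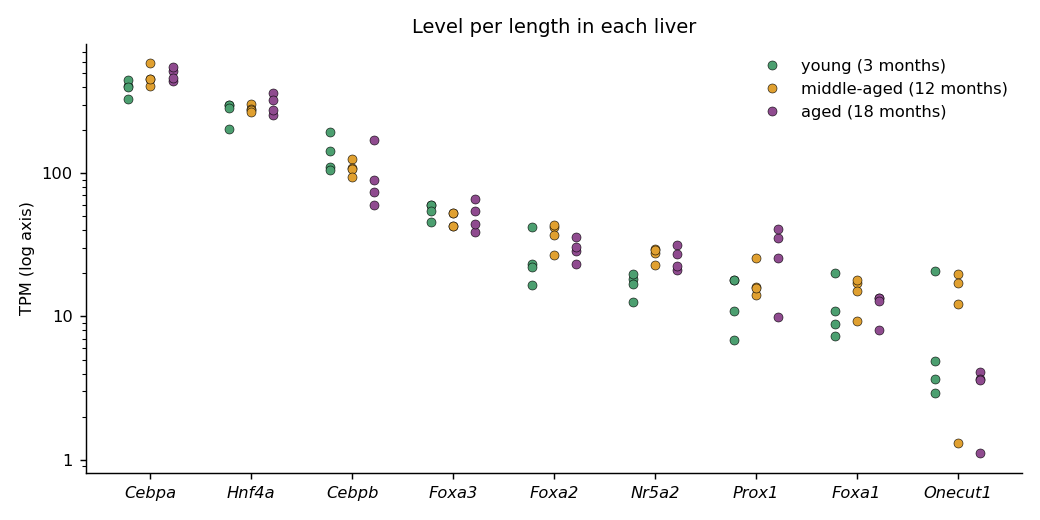
Level per length (TPM, log axis) of each factor in the 12 livers, with 1 point per liver coloured by age and genes ordered by their mean. Cebpa and Hnf4a lie above all other factors, and the points of Onecut1 run from 1.11 to 20.8 TPM.

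Within the FOXA family the shares of the summed per-length level were compared across ages. Foxa3 made up 60.3% ± 7.75 at 3 months, 48.1% ± 5.04 at 12 months and 54.8% ± 8.77 at 18 months (SD, n = 4), and Foxa2 made up 27.2% ± 5.22, 37.3% ± 4.21 and 32.2% ± 6.34. Foxa1 was the smallest share at each age (12.4% ± 3.84, 14.6% ± 2.05 and 13.03% ± 2.91). For Foxa3 the young livers ran from 48.9 to 65.2% and the middle-aged from 42.0 to 54.2%, so the ages overlapped.

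Promoters are among the places where such factors act on each other's genes. The upstream windows of 4 factors are shown because 3 of them (Foxa1, Foxa2 and Onecut1) moved together from liver to liver and the fourth (Nr5a2) differed between ages. Each is the 250 bases before a RefSeq transcription start on the GRCm38.p6 assembly, written 5′ to 3′ on the gene's strand, with capitals marking any match to the motifs searched. The windows lie at chr12:57546112-57546361 (minus strand) for Foxa1, chr2:148046970-148047219 (minus) for Foxa2, chr9:74861671-74861920 (plus) for Onecut1 and chr1:136960449-136960698 (minus) for Nr5a2.
Foxa1: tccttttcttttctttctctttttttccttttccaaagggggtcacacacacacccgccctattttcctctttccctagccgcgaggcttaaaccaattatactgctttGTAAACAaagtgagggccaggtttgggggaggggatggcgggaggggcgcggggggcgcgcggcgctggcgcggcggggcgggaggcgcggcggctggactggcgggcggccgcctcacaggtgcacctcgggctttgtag
Foxa2: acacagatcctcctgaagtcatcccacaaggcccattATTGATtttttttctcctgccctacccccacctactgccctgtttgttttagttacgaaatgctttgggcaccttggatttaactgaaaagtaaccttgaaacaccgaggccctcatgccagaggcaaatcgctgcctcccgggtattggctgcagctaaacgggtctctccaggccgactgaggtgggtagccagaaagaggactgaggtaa
Onecut1: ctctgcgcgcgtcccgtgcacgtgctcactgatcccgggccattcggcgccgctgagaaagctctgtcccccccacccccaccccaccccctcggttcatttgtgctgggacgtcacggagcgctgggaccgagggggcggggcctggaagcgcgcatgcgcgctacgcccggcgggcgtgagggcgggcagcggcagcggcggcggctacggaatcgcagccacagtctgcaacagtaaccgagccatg
Nr5a2: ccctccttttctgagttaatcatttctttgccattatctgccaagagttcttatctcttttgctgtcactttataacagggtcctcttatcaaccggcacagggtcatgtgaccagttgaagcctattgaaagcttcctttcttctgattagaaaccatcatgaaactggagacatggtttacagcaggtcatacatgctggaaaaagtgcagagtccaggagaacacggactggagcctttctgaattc

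All 9 factors were found in the RefSeq table, with 14 windows in all. On either strand, the letters searched were TGTTTAC for FOXA, ATTGAT for ONECUT, TTGCNNAA for C/EBP, CAAAGTCCA for HNF4 and CAAGGTCA for NR5A, none of which contains another. Among 32851 mouse windows of this length, these were present in 3.17%, 6.72%, 9.56%, 0.384% and 1.33%. The FOXA letters occurred in the Foxa1 window, 141 bases before the start. The ONECUT letters occurred in the Foxa2 window shown, 213 bases before the start, and in a window of Hnf4a. The C/EBP letters were found at another start of Nr5a2. The HNF4 and NR5A letters were in none of the 14, and the Onecut1 and Nr5a2 windows shown held no match. These matches describe the sequence and do not show binding.

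The calls among the factors were counted beside the share of all tested genes called. DESeq2 called 1 of the 9 between middle-aged and young livers, where 6.41% of all tested genes were called, 0 between aged and young (3.58% of all genes) and 0 between aged and middle-aged (1.14%). Across the 3 ages together 1 factor was called (6.96% of all genes). The factor called in both tests was Nr5a2. With 9 factors, these numbers are too small to be told apart from the shares over all genes. A factor that was not called was not thereby shown to be unchanged. At an unadjusted p under 0.05 the numbers were 3, 3, 1 and 3 in the same order, beside 21.7%, 15.9%, 9.94% and 20.5% of all tested genes. The median log2 fold change of the 9 was 0.08 for middle-aged against young, -0.10 for aged against young and -0.12 for aged against middle-aged, beside medians over all tested genes of 0.0065, -0.0003 and 0.0050. The comparisons share samples, so the columns are not independent of each other. edgeR's quasi-likelihood test on all 28449 genes with a count called 3 factors between middle-aged and young (Foxa3, Cebpb and Nr5a2, where 4.06% of all genes were called). It called 3 between aged and young (Cebpb, Prox1 and Onecut1, 3.09%) and 2 between aged and middle-aged (Prox1 and Onecut1, 1.57%). After its filter on low counts edgeR called 0 in each. On simulated counts, 200 genes were changed 2- or 4-fold between aged and young. There 47.7% of the calls of edgeR on all genes were false. The false share was 11.7% for DESeq2 and 5.29% for edgeR after its filter. These shares belong to that simulation, and the false share in the real comparisons is not known.

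**Figure D2:**
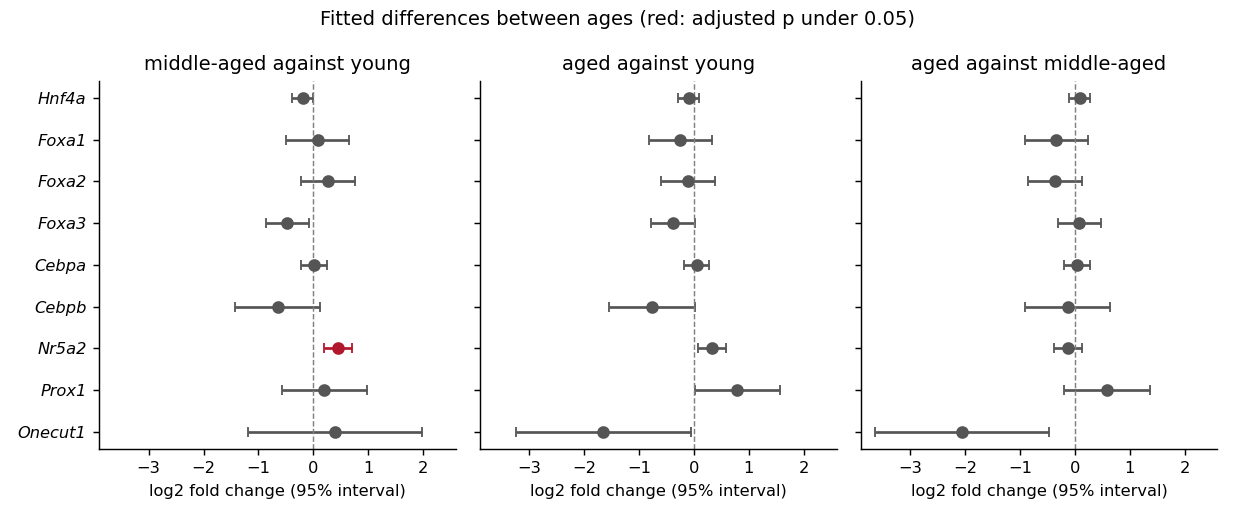
Fitted log2 fold changes of the 9 factors (horizontal axis, points) with 95% intervals (bars) from the DESeq2 fit of 12 livers, in a panel for each pair of ages. Nr5a2 in middle-aged against young (0.45, from 0.20 to 0.71) is in red as the only point with an adjusted p under 0.05, and the intervals of Onecut1 are the widest.

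Nr5a2 (ENSMUSG00000026398, chromosome 1, 136842571 to 136960448, minus strand), whose product regulates bile acid and cholesterol genes, rose by 12 months. Its normalised counts were 502, 437, 467 and 507 in young livers 1 to 4, 536, 720.0, 659.6 and 707 in middle-aged livers, and 546, 736, 585 and 543.5 in aged livers. Every middle-aged and every aged value lay above every young one, and the lowest middle-aged value was that of liver 1, the middle-aged library with the most genes detected. The mean rose 37.0% from 478 ± 32.8 to 656 ± 83.7 (SD, n = 4). The log2 fold change was 0.45 (SE 0.129, 95% interval 0.20 to 0.71, adjusted p by DESeq2 = 0.0132), and the test across the 3 ages gave an adjusted p of 0.0272. In aged livers the mean was 602.5 ± 90.9, a log2 fold change of 0.33 against young (interval 0.08 to 0.59) that did not pass the test (adjusted p by DESeq2 = 0.137). Of all tested genes, 16.0% had middle-aged and young groups that did not overlap, and 7.53% had aged and young groups that did not, and Nr5a2 was the only factor with either. Between aged and middle-aged it differed by -0.12 (interval -0.37 to 0.13).

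The call for Nr5a2 was close to the threshold. It was lost without any of 5 livers, young 2 (adjusted p by DESeq2 = 0.0813), young 3 (0.0650), middle-aged 2 (0.0816), middle-aged 3 (0.0539) or middle-aged 4 (0.0653), with log2 fold changes between 0.41 and 0.45. limma-voom gave an adjusted p of 0.0555 and edgeR after its filter on low counts 0.0617. Total counts as the scaling added a call for aged against young (adjusted p by DESeq2 = 0.0299).

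Genes of bile acid and cholesterol metabolism that NR5A2 is known to control did not move beyond the test. Of Cyp7a1, Cyp8b1, Nr0b2 and Scarb1, 0 of 4 were called in any pair of ages, with a median log2 fold change of -0.05 for middle-aged and -0.04 for aged against young. The median covers differences in both directions. In that order, the 4 had 0.80, 0.14, -0.67 and -0.25 for middle-aged against young. For aged against middle-aged they had -1.27, -0.07, 0.81 and 0.11. Nr0b2, which encodes SHP, a repressor that binds NR5A2, had means of 384 ± 147, 242 ± 96.7 and 424 ± 85.5 normalised counts at 3, 12 and 18 months (SD, n = 4). Over the 12 livers the genes most like Nr5a2 by Pearson correlation of log2(normalised count + 1), among 8888 genes with a mean of at least 50, were Atxn2 (r = 0.94), Tmcc3 (0.94) and Gpr155 (0.94).

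**Figure D3:**
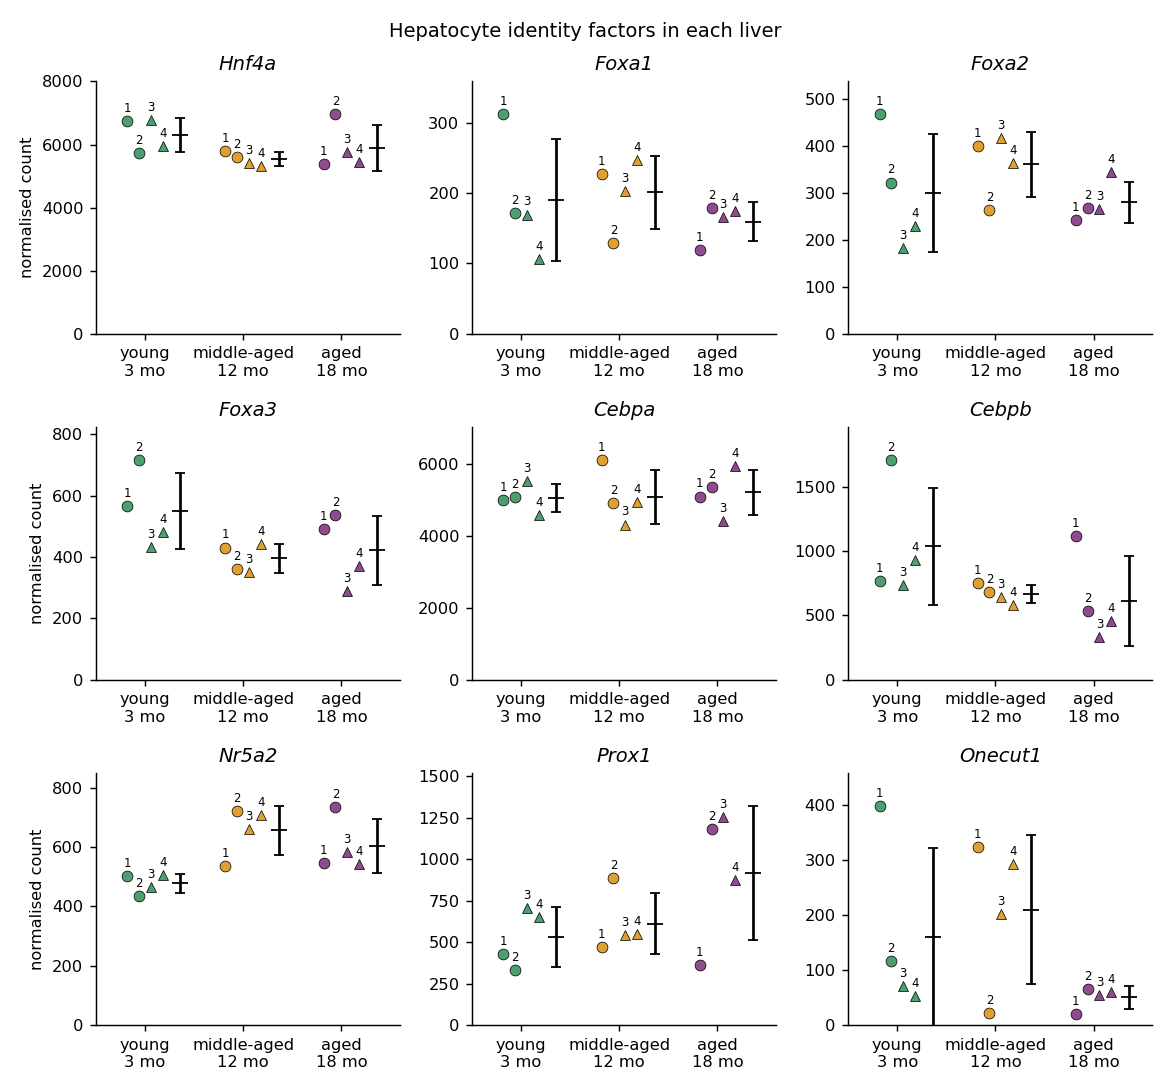
Normalised counts (vertical axes, from 0) of the 9 factors in each liver, by age in months, with numbers naming the livers, circles for livers 1 and 2 and triangles for livers 3 and 4. Black bars give the mean ± SD of 4 livers and are cut off at 0 for Onecut1. The young points of Nr5a2 lie below all the others, while aged liver 1 lies apart from aged livers 2 to 4 in Cebpb and Prox1.

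Hnf4a and Cebpa, the most abundant factors per length, were not called in any pair of ages. Hnf4a (ENSMUSG00000017950, chromosome 2, 163506808 to 163572910, plus strand) had normalised counts of 6738, 5745, 6792 and 5959 at 3 months, 5799, 5618, 5402 and 5306 at 12 months and 5396, 6967, 5750.3 and 5437 at 18 months. Of the 4 middle-aged livers 3 lay below every young one, and the aged livers covered nearly the whole span. Its log2 fold change was -0.10 for aged against young (interval -0.29 to 0.09, adjusted p by DESeq2 = 0.686). For middle-aged against young it was -0.19 (interval -0.38 to 0.00, unadjusted p by DESeq2 = 0.0462, adjusted p = 0.2198). In bulk tissue fewer cells of a type and less RNA per cell cannot be told apart, here and for each factor below. Total counts as the scaling turned the aged difference to 0.01.

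Cebpa (ENSMUSG00000034957, chromosome 7, 35119293 to 35121928, plus strand) had 4992, 5087, 5521.5 and 4572 normalised counts at 3 months, 6115, 4925, 4315 and 4948 at 12 months and 5094, 5365, 4416 and 5954 at 18 months. The 3 groups overlapped throughout. The log2 fold changes were 0.01 (interval -0.23 to 0.24), 0.05 (-0.19 to 0.28) and 0.04 (-0.20 to 0.27) for 12 against 3, 18 against 3 and 18 against 12 months, so changes beyond those intervals were not seen at this depth. The SD of log2 values within an age was 0.127 for Hnf4a and 0.171 for Cebpa, below the median of 0.190 over 8888 genes.

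Hnf4a's known targets moved little as a group. Of 13 listed targets (Apoa1, Apoa4, Apob, Apoc2, Apoc3, Mttp, Ttr, F7, F9, F12, F13b, Cyp8b1 and Otc) 12 were tested, and 1 rose and 0 fell in middle-aged and in aged livers against young. That gene was Apoa4, an apolipoprotein of triglyceride-rich particles, at 427 ± 83.7, 783 ± 133.5 and 1001 ± 257 normalised counts at 3, 12 and 18 months (SD, n = 4). Its log2 fold change was 0.87 (SE 0.20, adjusted p by DESeq2 = 8.9e-04) by 12 months and 1.23 (SE 0.20, adjusted p = 4.2e-07) by 18 months, with no overlap between ages compared, and it was called without each library in turn. The median of the 12 was 0.05 at 12 and 0.09 at 18 months against young.

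Among the C/EBP genes, Cebpb varied far more than Cebpa. Cebpb (ENSMUSG00000056501, chromosome 2, 167688915 to 167690418, plus strand), which is induced by cytokine and stress signals in hepatocytes and other cells, had 771, 1710.4, 736 and 931 normalised counts at 3 months, 752, 679.6, 645.5 and 579 at 12 months and 1120.0, 534, 331 and 455 at 18 months. Young liver 2 and aged liver 1 were the highest of the 12, and the other 3 aged livers were the lowest. The log2 fold change was -0.77 for aged against young (SE 0.394, interval -1.54 to 0.01, adjusted p by DESeq2 = 0.322) and -0.64 for middle-aged against young (SE 0.394, adjusted p = 0.341). Without aged liver 1 the aged difference was -1.24 (adjusted p by DESeq2 = 1.8e-04), and without young liver 2 it was -0.42 (adjusted p = 0.689). The middle-aged difference without young liver 2 was -0.29 (adjusted p by DESeq2 = 0.748). Offsets for exon length and GC content gave -0.80 (adjusted p = 0.0378). Young liver 2 also had the largest shares of mitochondrial and spike-in counts, and the part of these in the result was not tested. On the opposite strand, exons of Tmem189 share 312 bases with Cebpb and held 65 to 132 counts.

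The ratio of Cebpa to Cebpb counts within a library does not depend on scaling. It was 6.48, 2.97, 7.504 and 4.91 at 3 months, 8.14, 7.25, 6.69 and 8.54 at 12 months and 4.55, 10.1, 13.3 and 13.1 at 18 months. The mean log2 ratio was 2.37 ± 0.59, 2.93 ± 0.16 and 3.24 ± 0.73 (SD, n = 4). The differences were 0.87 for aged against young (two-sided exact permutation p = 0.143, Benjamini-Hochberg adjusted over 3 comparisons 0.214), 0.56 for middle-aged against young (exact p = 0.114, adjusted 0.214) and 0.31 for aged against middle-aged (exact p = 0.429, adjusted 0.429), with 0.0286 the smallest p that 4 against 4 allows. None of these differences passed the test. Aged livers 2 to 4 had the highest ratios of the 12, whereas aged liver 1 was low.

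Of 9 listed C/EBP targets (Alb, Pck1, G6pc, Tat, Cps1, Adh1, Orm1, Hp and Saa1) 2 fell in middle-aged and 1 in aged livers against young, and 0 rose. The median log2 fold change of the 9 was -0.27 for middle-aged and -0.25 for aged against young. Orm1, an acute-phase protein of plasma, went from 8639 ± 1874 to 5673 ± 690.1 and 5471 ± 1412 normalised counts (log2 fold changes -0.61 and -0.66, SE 0.19 in each, adjusted p by DESeq2 = 0.0281 and 0.0205). The young and older groups overlapped. Its calls were lost without any of 5 livers at 12 months (young 2 or 3, middle-aged 1, 2 or 4, adjusted p between 0.0611 and 0.179) and any of 4 at 18 months (young 2 or 3, aged 3 or 4, between 0.0617 and 0.147). Saa1, serum amyloid A, was at 382 to 4033 normalised counts in young and 132 to 227 in middle-aged livers (log2 fold change -2.97, SE 0.71, adjusted p by DESeq2 = 0.0021), and without young liver 2 its difference was -1.67 (adjusted p = 0.0188). Cebpd, another C/EBP gene of the acute phase, fell by 12 months (102 ± 30.8 to 54.6 ± 10.6, log2 fold change -0.90, SE 0.27, adjusted p = 0.0215), a call lost without young 2, young 4, middle-aged 2 or middle-aged 3 (adjusted p between 0.0882 and 0.142). Cebpg was within 0.22 of no change on the log2 scale in each pair.

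The FOXA genes were not called in any pair of ages, and they did not behave alike. Foxa3 (ENSMUSG00000040891, chromosome 7, 19013284 to 19023538, minus strand), the member with the highest level per length, had 567, 717, 434 and 482 normalised counts at 3 months, 431, 362, 349.7 and 443 at 12 months and 491, 536.5, 288 and 369 at 18 months. Of the 4 middle-aged livers 3 lay below every young one, and the aged livers ran from the lowest value of the 12 to within the young range. The log2 fold change was -0.47 by 12 months (SE 0.202, interval -0.87 to -0.08, unadjusted p = 0.0194, adjusted p by DESeq2 = 0.139) and -0.38 by 18 months (interval -0.78 to 0.01, adjusted p = 0.335). The difference at 18 months was -0.23 without young liver 2 and -0.24 without aged liver 3. A fit of the young and middle-aged livers alone called it (-0.47, adjusted p by DESeq2 = 0.0416).

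Foxa2 (ENSMUSG00000037025, chromosome 2, 148042877 to 148046969, minus strand), with roles in bile acid and glucose metabolism, had 468, 322, 182.5 and 229 normalised counts at 3 months, 399, 264, 418 and 363 at 12 months and 243, 269, 265 and 344 at 18 months. The young livers alone spanned more than the other ages together. Its log2 fold change was 0.26 by 12 months (interval -0.23 to 0.76), from 0.09 without young liver 3 to 0.56 without young liver 1, and -0.10 by 18 months (interval -0.60 to 0.39). Foxa1 (ENSMUSG00000035451, chromosome 12, 57540628 to 57546916, minus strand) had 312, 172, 169 and 106 at 3 months, 226, 128, 202 and 247 at 12 months and 118, 179, 165 and 174 at 18 months. Its log2 fold change was 0.08 (interval -0.49 to 0.65) by 12 months and -0.25 (interval -0.82 to 0.32) by 18 months, and young liver 1 was the highest of the 12 for both genes. Without young liver 1 the aged difference was 0.20 for Foxa2 and 0.10 for Foxa1.

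The 7 FOXA targets listed (Alb, Ttr, Tat, Igfbp1, Pck1, Cps1 and Trf) share Alb, Tat, Pck1 and Cps1 with the C/EBP targets. The median log2 fold change of the 7 was -0.20 for middle-aged and -0.25 for aged against young. Among them 1 fell and 0 rose at each older age against young. That gene was Igfbp1, a binding protein of insulin-like growth factors that falls with feeding, at 435 ± 130 normalised counts at 3 months, 42.3 ± 17.6 at 12 months and 98.6 ± 69.8 at 18 months (log2 fold changes -3.36 and -2.14, SE 0.60 and 0.59, adjusted p by DESeq2 = 5.6e-06 and 0.0147). The young group did not overlap either older one. The call at 12 months held without each library in turn, and that at 18 months was lost without young 2, young 3 or aged 2 (adjusted p between 0.0656 and 0.102). The feeding state of the animals was not among the labels.

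Onecut1 (ENSMUSG00000043013, chromosome 9, 74861921 to 74891781, plus strand) was the most variable of the 9. It had 398, 117, 71.1 and 52.7 normalised counts at 3 months, 324, 22.4, 201 and 292 at 12 months and 20.1, 66.5, 55.1 and 60.8 at 18 months. The 4 aged livers were all low, but the other ages held both the highest values and values as low. Its lowest and highest livers differed 14.4-fold within the middle-aged group. The log2 fold change was -1.66 for aged against young (SE 0.813, interval -3.25 to -0.06, adjusted p by DESeq2 = 0.285) and -2.05 for aged against middle-aged (SE 0.812, interval -3.64 to -0.46, unadjusted p = 0.0116, adjusted p = 0.273). No factor had groups of aged and middle-aged livers that did not overlap, against 6.55% of all tested genes. Without young liver 1 the difference from young was -0.66 (adjusted p = 0.725). A lincRNA on the same strand, Gm20649, shares 2171 exonic bases with Onecut1 and had 0 counts in all libraries. How reads in the shared bases were counted is not known. The TPM of Onecut1 divides by all 4113 of its exonic bases, so it is too low if those reads were left out.

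Onecut2, its close relative, was level across ages at 698 ± 120, 752 ± 73.4 and 711 ± 130 normalised counts (SD, n = 4), with log2 fold changes of at most 0.11 in size. Of 3 listed ONECUT1 targets (Pfkfb1, G6pc and Ttr) 1 fell in aged livers against young. The median log2 fold change of the 3 was -0.23 for middle-aged and -0.09 for aged against young. Pfkfb1, a liver enzyme that controls the pace of glycolysis, went from 376 ± 34.8 to 259 ± 18.6 (log2 fold change -0.54, SE 0.17, adjusted p by DESeq2 = 0.0486), with groups that did not overlap. That call was lost without any of 9 of the 12 libraries (all 4 young, middle-aged 1 and 4, aged 2, 3 and 4, adjusted p between 0.0582 and 0.170).

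Prox1 (ENSMUSG00000010175, chromosome 1, 190118035 to 190170714, minus strand) had 429.9, 336, 709.7 and 654 normalised counts at 3 months, 472, 885, 544 and 550.2 at 12 months and 366, 1184, 1254 and 875 at 18 months. Aged livers 2 to 4 and middle-aged liver 2 were the highest of the 12, whereas only young liver 2 was lower than aged liver 1. The log2 fold change was 0.79 for aged against young (SE 0.399, interval 0.01 to 1.57, adjusted p by DESeq2 = 0.308) and 0.59 for aged against middle-aged (SE 0.398, adjusted p = 0.716). Without aged liver 1 it was 1.05 against young (adjusted p = 0.0024). The lymphatic endothelial markers Pdpn and Flt4 summed to 185 to 283, 213 to 316 and 192 to 318 normalised counts at 3, 12 and 18 months, and 0 of 2 were called. Prox1os, an antisense transcript with 133 shared exonic bases, held 40 to 99 counts.

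The comparisons were repeated within each spike-in set, where 2 livers stood against 2. In set B, Cebpb (-1.09, adjusted p by DESeq2 = 5.3e-06) and Prox1 (0.64, adjusted p = 0.0169) were called between aged and young, where 4.22% of all tested genes were called. Foxa2 (0.91, adjusted p = 0.0067) and Onecut1 (1.99, adjusted p = 2.1e-06) were called between middle-aged and young (3.64% of all genes). Prox1 (0.97, adjusted p = 2.5e-05) and Onecut1 (-2.08, adjusted p = 3.1e-07) were called between aged and middle-aged (2.47%). Set A gave 0 calls in each pair. There Cebpb and Prox1 had log2 fold changes of -0.58 and 1.02 for aged against young, Foxa2 and Onecut1 of -0.25 and -0.57 for middle-aged against young, and Prox1 and Onecut1 of 0.20 and -1.997 for aged against middle-aged. The direction was thus shared by the sets for each of these except Foxa2 and Onecut1 at 12 months. Nr5a2 had similar fold changes for middle-aged against young in both sets (0.42 in set A with adjusted p = 0.668, 0.48 in set B with adjusted p = 0.0948), neither of which passed the test alone.

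The factors differed in how much they varied between livers of the same age. The SD of log2 values within an age was 1.34 for Onecut1, a value above 99.8% of 8888 genes, 0.601 for Prox1 (97.1%), 0.545 for Cebpb (96.5%), 0.465 for Foxa1 (94.9%), 0.402 for Foxa2 (92.6%) and 0.313 for Foxa3 (85.3%). Nr5a2 lay near the middle at 0.173 (41.7%) and Hnf4a low at 0.127 (17.0%). The call for Nr5a2 was thus made at a small spread, whereas fold changes of the same or larger size in Cebpb, Prox1 and Onecut1 came with a large one.

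**Figure D4:**
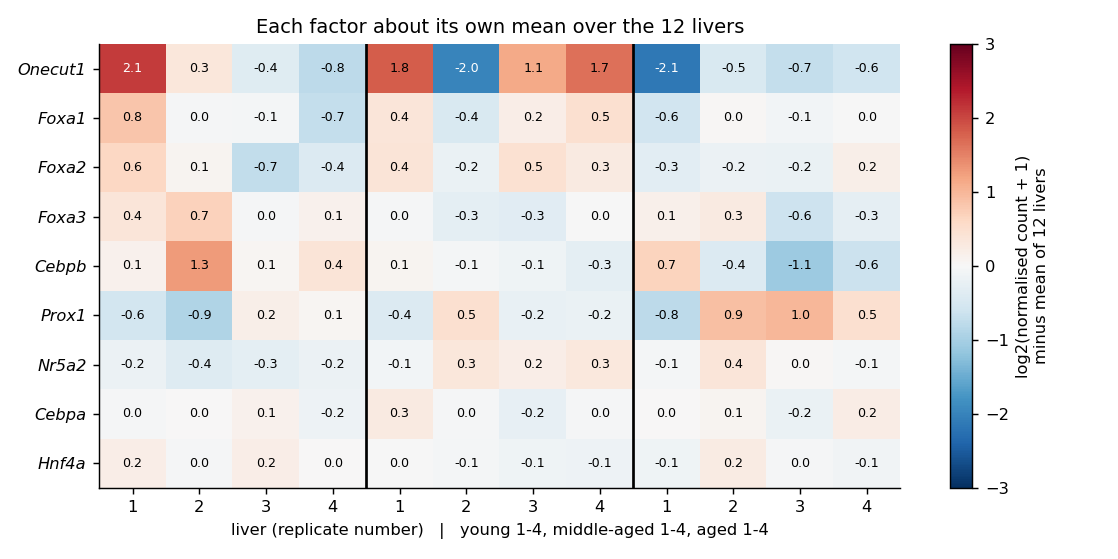
Log2(normalised count + 1) of each factor in each liver minus that factor's mean over the 12 livers (colour and printed value), with vertical lines between ages. Onecut1 runs from -2.1 in aged liver 1 to 2.1 in young liver 1, Foxa1 and Foxa2 take the same sign as Onecut1 in most livers, and Hnf4a stays within 0.3 of its mean.

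Some factors rose and fell together from liver to liver. Foxa1 and Onecut1 had a Pearson correlation of 0.89 over the 12 livers (Spearman 0.92, and 0.91 with the age means removed), Foxa1 and Foxa2 of 0.76 (Spearman 0.88) and Foxa2 and Onecut1 of 0.76 (Spearman 0.78). Young liver 1 and middle-aged livers 1, 3 and 4 were above the mean for all 3 genes. Young livers 3 and 4, middle-aged liver 2 and aged livers 1 and 3 were below it for all 3. Cebpb and Prox1 went in opposite directions, with a correlation of -0.82 (Spearman -0.81, and -0.79 with age means removed). Cebpb and Foxa3 were correlated at 0.78 and Foxa3 and Prox1 at -0.61. All values of a liver come from the same library and share its depth and base composition, so these correlations describe the 12 libraries. Nr5a2 had correlations of -0.55 with Cebpb, 0.50 with Prox1 and -0.43 with Foxa3 (-0.32, 0.55 and 0.06 with age means removed). The remaining pairs lay between -0.37 and 0.37.

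**Figure D5:**
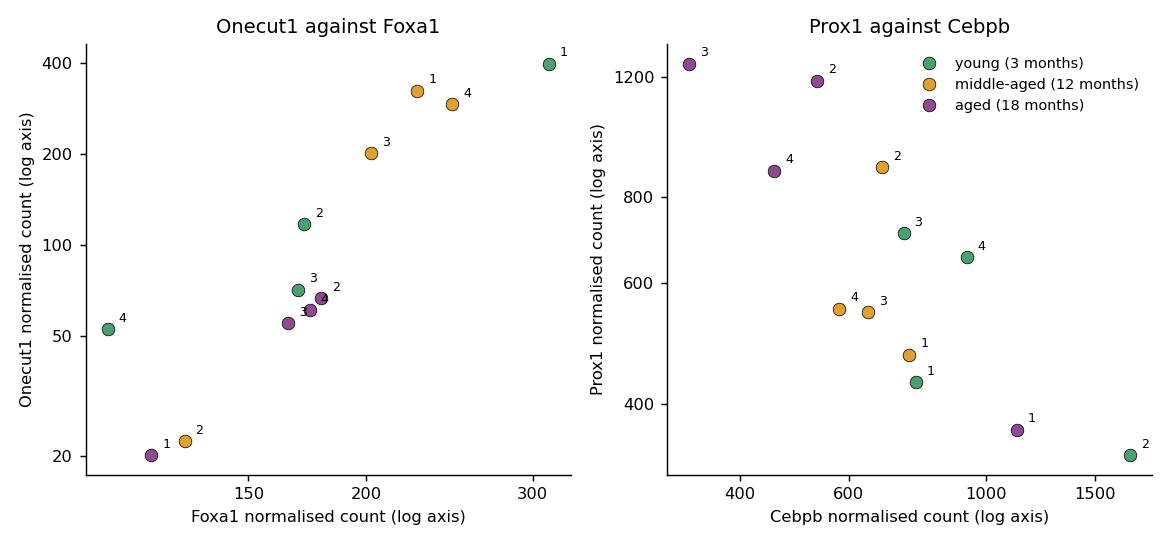
Normalised counts of Onecut1 against Foxa1 (left) and Prox1 against Cebpb (right) in the 12 livers, both axes logarithmic, coloured by age and numbered by liver. Onecut1 and Foxa1 rise together (r = 0.89), and Prox1 falls as Cebpb rises (r = -0.82), with aged liver 1 beside young liver 2 at the end of low Prox1.

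Genes outside the group followed some factors as closely. Plcxd2 was the gene most like both Onecut1 (r = 0.95 over 12 libraries) and Foxa1 (0.94), and Zfp655 was shared by Foxa1 (0.87) and Foxa2 (0.91). The other neighbours of Onecut1 were Gbp11 (0.95) and Gm14403 (0.88), that of Foxa1 was Slc25a30 (0.84), and those of Foxa2 were Smc6 (0.89) and Kdm5a (0.87). Foxa3 was followed by Serpina10 (0.96), Stap2 (0.96) and BC024386 (0.93). Cebpb was followed by Nnmt (0.97), an enzyme that methylates nicotinamide, Urah (0.96) and Eif2d (0.95), and Prox1 by Bcor (0.96), Sall1 (0.93) and Gzf1 (0.93). Hnf4a was most like Ero1lb (0.91), Dnajc3 (0.86) and Arf4 (0.86), and Cebpa like Hsf4 (0.87), Gm16286 (0.85) and Dnajc9 (0.83).

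Exon length moved with the fold changes. Among 8888 genes split into 5 classes by exonic length, the median log2 fold change of middle-aged against young ran from -0.15 in the shortest to 0.14 in the longest class, and of aged against young from -0.10 to 0.09. Cebpb (1504 bases), Foxa3 (2037) and Foxa2 (2370) are in the shortest class, Nr5a2 (5899) is in the class with medians of 0.05 and Prox1 (8390) in the longest. With offsets for length and GC content Nr5a2 had a log2 fold change of 0.42 for middle-aged against young (adjusted p by DESeq2 = 0.0169), Foxa3 of -0.37 (adjusted p = 0.226) and Prox1 of 0.70 for aged against young (adjusted p = 0.335).

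Other liver transcription factors were tested in the same way. Of 18 listed (Hnf4g, Onecut2, Cebpd, Cebpg, Gata4, Gata6, Hhex, Tbx3, Creb3l3, Xbp1, Klf15, Zhx2, Zbtb20, Nfia, Nfib, Bcl6, Cux2 and Atf5) 16 were tested, and 1 rose in aged against young, 1 fell in middle-aged against young and 1 rose in aged against middle-aged. The rise in both cases was Atf5, a stress-response leucine zipper factor abundant in liver, at 4470.0 ± 416.5 normalised counts at 3 months, 4450.0 ± 267 at 12 months and 5799 ± 523 at 18 months (SD, n = 4). Its log2 fold change was 0.38 against each younger age (SE 0.09 in each, adjusted p by DESeq2 = 0.0031 against young and 0.0059 against middle-aged), with no overlap of groups. The call against young held without each library in turn, and that against middle-aged was lost without middle-aged 3 (adjusted p = 0.0802), middle-aged 4 (0.0794) or aged 3 (0.0501).

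Among 10 partner nuclear receptors (Nr1h4, Nr1h3, Nr1i2, Nr1i3, Nr0b2, Nr2f1, Nr2f2, Nr2f6, Rxra and Ppara), 2 of 9 tested rose in middle-aged and 1 of 10 in aged livers against young, and 0 fell. Nr2f2, which encodes COUP-TFII, had 196 ± 19.3 normalised counts at 3 months, 289 ± 31.8 at 12 months and 275 ± 20.9 at 18 months. Its log2 fold change was 0.56 (SE 0.12, adjusted p by DESeq2 = 6.4e-04) and 0.48 (SE 0.12, adjusted p = 0.0066), with groups that did not overlap. The call at 18 months was lost without young 2 (adjusted p = 0.0580) or aged 4 (0.0575). Ppara, the fatty acid sensor, went from 444 ± 133 to 752 ± 73.2 by 12 months (log2 fold change 0.76, SE 0.25, adjusted p = 0.0393), without overlap, and that call was lost without any of young 1, 2 or 3 or any middle-aged liver (adjusted p between 0.0684 and 0.179). Rxra, the partner of many of these receptors, was within 0.09 of no change on the log2 scale in each pair.

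Markers of the other cells that make some of these factors were followed beside them. Of 4 biliary markers tested out of 6, Sox9 rose in aged livers, from 44.0 ± 13.9 in young and 41.0 ± 7.18 in middle-aged to 79.3 ± 5.06 normalised counts (log2 fold changes 0.86 and 0.95, SE 0.24 in each, adjusted p by DESeq2 = 0.0169 and 0.0117), without overlap. Its calls were lost without young 1 or 4 or aged 2, 3 or 4 in the first case (adjusted p between 0.0556 and 0.0873) and without middle-aged 3 or 4 or aged 2 or 4 in the latter (between 0.0707 and 0.161). Krt7, Krt19 and Spp1 went the other way and were not called, with log2 fold changes of -0.10, -0.27 and -0.59 for aged against young. For aged against middle-aged these were -0.08, -0.49 and -0.13. Epcam and Cldn4, which define bile duct cells, were near the floor, with 0 to 8 and 0 to 3 counts in a library. The biliary sum was 280 to 352, 120 to 448 and 223 to 408 normalised counts at 3, 12 and 18 months. Of 6 Kupffer cell, 5 endothelial and 5 stellate cell markers 0 were called, as were 0 of up to 3 lymphocyte markers tested. Their sums ranged over 2284 to 4586, 1249 to 2091, 1146 to 3011 and 92 to 311 across all livers. Each of the 5 pancreatic acinar markers was at 0 in at least 9 of the 12 libraries, and the highest count was 3, for Ctrb1. Of 5 fetal liver genes, Igf2 had at most 1 count in a library, Dlk1 had 0 to 18, and the others gave 0 calls. The part of cell composition in the values of the 9 factors was not tested.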

How the data were processed

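Whole-liver RNA-seq of 12 samples was analysed, 4 at each of 3, 12 and 18 months, with each sample taken as a different mouse. The authors deposited 1 table of whole-number read counts per gene, not normalised, with 92 spike-in rows that were left out of the tests. The submitters' processing notes name STAR 2.5.2b, SAMtools 1.9, featureCounts, edgeR 3.28.1, DESeq2 1.26.0, R 3.6.3 and the mm10/GRCm38 genome, without their roles. The labels describe RNA extraction from young and old livers only. The study took RNA-seq of the 3 ages from a public atlas. It also sequenced 4 young and 4 old livers of its own with a directional (strand-keeping) library kit. How these 12 libraries were prepared, and whether counting used strand, is uncertain. The design text names 3 replicates per age, the labels 4, and all 12 labelled samples were used. Columns were matched to samples by title.

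Gene symbols, positions and union exon lengths came from GENCODE M21 (GRCm38), which held 53360 of 53465 identifiers. The 28449 genes with at least 1 count entered DESeq2 1.42.0 (R 4.3.3), in a fit of all 12 samples with age as the only term, median-of-ratios scaling, default independent filtering and Benjamini-Hochberg adjustment over all genes at 0.05. Wald tests compared pairs of ages and a likelihood ratio test the 3 ages. Folds against young and between older ages share samples. TPM was computed from counts and union exon length. The Cebpa to Cebpb ratio was compared by exact permutation. Scripts were tested on simulated counts with known changes in 200 genes between aged and young. At 0.05 the share of false calls was 11.7% with DESeq2, 47.7% with edgeR on all genes, 9.2% with limma-voom and 5.29% with edgeR after its filter.

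The members and the 16 other gene lists were chosen with earlier results of these data known. All 9 factors are named. From every other list up to 3 genes in each direction are named per pair of ages, those with the largest fold change among genes with an adjusted p under 0.05 and a mean of at least 50 normalised counts, and for each factor the 3 most correlated such genes. Cebpg, Nr0b2, Onecut2 and Rxra were chosen after their values were seen. Some listed genes are not reported here, and list counts and medians leave them out. Ccl21a matched 2 identifiers and was left out, and transferrin was matched as Trf.

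Alternatives were edgeR 4.0.16, limma 3.58.1 voom with quality weights, TMM or total-count scaling, no independent filtering, a minimum of 10 counts in 4 samples, a replicate block, the spike-in set as covariate or alone, the 2 groups alone, leaving out each sample, medians and longest-transcript length. Chosen after seeing the data were edgeR (with and without the block) and limma-voom after filterByExpr, leaving out the 2 libraries with most genes detected, and length and GC offsets (lowess, span 0.3). With 4 livers per age, precision is set by the spread between animals, and floors of 3 counts cover counting error only.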

Additional observations from a re-analysis of the deposited data

Results flagged for a closer look

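In none of 30 groups of 4 livers (the 9 factors and the Cebpa to Cebpb ratio at 3 ages) did the highest or lowest liver stand further from the next than Dixon's 95% limit, where chance would give about 1.5 such groups. Outside the gene counts, synthetic spike-in transcripts took 3.5, 10.63, 6.23 and 3.98% of all counts in young livers 1 to 4. The shares were 2.28, 1.85, 1.59 and 2.73% in middle-aged and 3.51, 2.19, 1.87 and 3.14% in aged livers. Every middle-aged share thus lay below every young one. The part of this in the fold changes between ages was not tested. Spike-in transcripts entered no comparison of the factors other than the division of the libraries into sets A and B.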

How the results depend on the processing

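Of the calls among the 9 factors, that of Nr5a2 for middle-aged against young was lost under several settings, and the causes were not tested. The number called for that pair was 3 with edgeR on all genes, 2 in set B alone and with the 2 groups alone, and 0 with edgeR after filterByExpr (with or without the block), limma-voom, the replicate block and set A alone. For aged against young it was 3 with edgeR, 2 in set B, and 1 with total counts (Nr5a2) or length and GC offsets (Cebpb), and for aged against middle-aged 2 with edgeR and in set B. Across the 3 ages it was 5 with edgeR on all genes, 4 in set B, and 0 with edgeR after filterByExpr (with or without the block), limma-voom, the replicate block, set A and no independent filtering. Without each library in turn the counts ran from 0 to 1 for middle-aged against young, from 0 to 2 for aged against young (2 without aged liver 1), stayed at 0 for the 2 older ages, and ran from 0 to 3 across ages. The across-age call was lost without any young liver or without middle-aged liver 2, 3 or 4. For the 3 ages together, the share of all genes called under these other settings was not counted. In pairs of ages it was counted only for edgeR on all genes and for set B. The remaining counts of factors cannot be set against all genes.

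Livers of the same number came from different animals and belonged to the same spike-in set at each age. Their deviations from the age means correlated between -0.303 and 0.159. With the replicate block the DESeq2 adjusted p of Nr5a2 was 0.0519 and its log2 fold change 0.44, and Cebpa at 12 months turned to -0.001 (-0.006 with edgeR after filterByExpr).

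Signs of small differences turned under some settings. For aged against young, total counts gave 0.01 for Hnf4a (0.013) and 0.025 for Foxa2, limma-voom after filterByExpr 0.002 for Foxa1 and 0.184 for Foxa2, and set B 0.303 for Foxa1 and 0.558 for Foxa2. For middle-aged against young, set A gave -0.451 for Foxa1, -0.255 for Foxa2 and -0.571 for Onecut1, set B gave -0.133 for Cebpa and -0.327 for Prox1, and limma-voom gave -0.011 for Cebpa (-0.027 after filterByExpr) and -0.225 for Onecut1. Leaving out the 2 libraries with most genes detected gave -0.034 for Foxa1, -0.047 for Cebpa and -0.141 for Onecut1. For aged against middle-aged, set A gave -0.076 for Cebpa, 0.208 for Cebpb and 0.033 for Nr5a2, set B gave -0.261 for Foxa3, limma-voom after filterByExpr gave -0.009 for Foxa3, and offsets gave -0.004 for Cebpa.

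Leaving out each library turned the sign for Foxa1 (from -0.453 to 0.10), Foxa2 (-0.278 to 0.199) and Cebpa (-0.025 to 0.117) in aged against young, for Foxa1 (-0.12 to 0.432), Cebpa (-0.094 to 0.082) and Prox1 (-0.031 to 0.373) in middle-aged against young, and for Foxa3 (-0.048 to 0.232), Cebpa (-0.036 to 0.141) and Cebpb (-0.594 to 0.081) in aged against middle-aged. The Cebpa to Cebpb log2 ratio ran from 0.61 to 1.22, 0.30 to 0.74 and 0.15 to 0.66 for 18 against 3, 12 against 3 and 18 against 12 months, and the last was -0.183 in set A. Depth limits Onecut1 most, with 20 counts in its lowest library. Calls in the other gene lists were each lost under at least 1 setting besides leaving out a library, except Apoa4 for aged and Igfbp1 for middle-aged against young. Where DESeq2 gave no adjusted p (Cebpd, Saa1 and Sox9 under some settings), no call was counted as lost. By the longest transcript Cebpa was at 379 TPM.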

Other observations

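Hhex and Tbx3, a homeobox and a T-box factor of early liver development that both persist in adult liver, are described here because of their spread, seen after their values were known. Hhex had 1562.5 and 1196 normalised counts in young livers 1 and 2 against 325 and 232 in young livers 3 and 4, 646, 653, 1035 and 1227 in middle-aged livers 1 to 4, and 520, 499, 506 and 533 in aged livers. Its SD was 654 in young and 15.0 in aged livers. Tbx3 had 71.1 and 90.4 in young livers 1 and 2 against 276 and 283 in young livers 3 and 4, 202.5, 434, 137 and 177 in middle-aged and 216, 406.5, 385 and 444 in aged livers. Neither differed between ages by the test (log2 fold changes for aged against young -0.69 and 1.01, DESeq2 adjusted p = 0.602 and 0.323). Among the young livers the pair high in Hhex was the pair low in Tbx3, and these pairs were those of the spike-in sets. The middle-aged livers divided by set the other way round, with livers 3 and 4 high in Hhex and low in Tbx3, and the aged livers did not divide by set for Hhex.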
